A study of Homo sapiens with 42 samples.

Results

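The genes described here encode the nuclear subunits of the oxidative phosphorylation machinery, together with the NDUFAF assembly factors of complex I whose symbols the same prefix catches. They were chosen by symbol from probe sets annotated to a single gene: NDUFA, NDUFB, NDUFC, NDUFS and NDUFV genes, the SDH genes, UQCR genes and CYC1, the COX4 to COX8 subunits, and ATP5 genes, without pseudogenes. The brightest retained probe set, by mean signal over all arrays, stood for each gene. This gave 88 genes of the 19775 genes with a single-symbol probe set, and 85 of them were among the 14705 genes bright enough to test. COX7A1, COX8C and ATP5MF were too dim, with mean signals of 3.8, 2.2 and 5.2. NDUFS8, NDUFC2, NDUFS5, UQCRH and UQCRHL were read only by probe sets shared with another gene, and SDHB and UQCRFS1 were not analysed here.

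Oxidative phosphorylation takes place in the inner mitochondrial membrane. Complexes I and II feed electrons from NADH and succinate into ubiquinone, complex III passes them to cytochrome c, and complex IV hands them to oxygen, while complexes I, III and IV pump protons. Complex V, the ATP synthase, lets the protons back through its membrane part (Fo) and makes ATP in its catalytic head (F1), which a peripheral stalk holds in place. Most subunits are encoded in the nucleus, and NRF1, GABPA (an ETS factor) and YY1 are known regulators of many of these genes.

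The cells were RPMI-8226, an established human multiple myeloma line, stably infected with a construct for an shRNA against BMI1 or for a control shRNA, each switched on by doxycycline (dox) at 100 ng/ml. BMI1 is a Polycomb protein of the repressive complex that ubiquitinates histone H2A. The design gave 14 groups of 3 arrays. Each line was profiled without dox at 0, 24, 32 and 48 h and with dox at 24, 32 and 48 h, so that both the dosed and the undosed cells carried the construct. Whether a line was 1 clone is not given in the sources used here. The labels number the replicates but do not say that they were separate cultures, so the p-values measure the spread between arrays, which may be technical. The 3 arrays of the BMI1-shRNA line at 0 h carry conflicting labels. Titles put them in the BMI1-shRNA line without dox, whereas a characteristic says dox and the source field names the control cells. They were taken by title. Among the tests they enter only the comparisons with 0 h and the shared estimate of the spread. They also count in the choice of probe sets bright enough to test, in the mean signals and in the correlations with ATP5PB. All other values taken over the whole set of arrays include them too.

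BMI1 itself bore out the labels of the dosed and undosed arrays of the BMI1-shRNA line. In the BMI1-shRNA line its probe set read 206.9 ± 34.1 (SD, n = 3) with dox and 926.9 ± 154 without at 24 h. At 32 h the means were 166.6 and 976.9, and at 48 h 158.9 and 1021.3. The control-shRNA line had dosed means of 1331.7, 1191.9 and 1206.4, and undosed ones between 1158.7 and 1259.0. BMI1 therefore cannot check the dox labels of the control-shRNA line, which were taken as given. The 3 BMI1-shRNA arrays at 0 h read 1069.4, 1009.3 and 1018.3, above every dosed array of that line and below the mean of every control group. That probe set is also annotated to the readthrough transcript COMMD3-BMI1.

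Of 10 plasma cell markers, 9 read at or above the array median on all 42 arrays, and SLAMF7 did so on none. Of 5 epithelial markers 4 did so on all arrays, with medians of 3284.7 for EPCAM, 1917.2 for KRT18, 181.2 for CDH1 and 43.2 for KRT8, and KRT19 did so on none (1.4). The same held for 0 of 4 T cell markers, 0 of 5 monocyte markers, 1 of 5 fibroblast markers (COL1A1, at 118.0) and 1 of 2 erythroid markers (HBB, at 32.1). Array medians lay between 16 and 22.5 on arrays scaled to a common trimmed mean. The GAPDH 3' to 5' ratio, a measure of RNA integrity, was 0.935 ± 0.0251 (SD, n = 21) in the BMI1-shRNA line and 1.03 ± 0.0401 (n = 21) in the control line. It moved with the line, and its part in the differences between the lines was not tested.

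Promoter motifs of known regulators were counted, since the choice by symbol did not use them. RefSeq promoters (assembly GRCh38.p14, 250 bases before to 50 after each start) were found for 75 of the 88 genes, and both strands were searched. The NRF1 core GCGCANGC was in a promoter of 31 of the 75 (41.3%), against 14.2% of all 27305 genes with a promoter and 22.7% of the 11733 tested ones. The ETS core CCGGAAG was in 21 (28%), against 12.2% and 20%. The YY1 core AAGATGGC was in 12 (16.0%), against 3.5% and 5.7%. At least 1 of these motifs was in 48 (64.0%), against 25.6% and 40.4%. The median GC content of the promoters was 60.3% in the 75 genes, 58.3% in all genes and 64.0% in the tested ones. These shares describe letters and are not evidence of binding.

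The stretches below are shown for ATP5PB and ATP5MG, the members that fell most with dox, for NDUFA9, which differed most between the lines among the bright members, and for COX5B, whose promoter holds several of the motifs. Each runs 5' to 3' from 160 bases before the annotated start to the end of the last motif shown, on the plus strand of GRCh38.p14, and capitals mark the motifs.
ATP5PB lies at chr1:111449304-111449469 and has a YY1 core that spans the start, read from the opposite strand.
ATP5PB: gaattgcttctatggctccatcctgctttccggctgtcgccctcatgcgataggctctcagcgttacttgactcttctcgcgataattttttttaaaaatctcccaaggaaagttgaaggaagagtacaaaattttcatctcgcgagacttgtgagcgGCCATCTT
ATP5MG lies at chr11:118401446-118401613 and has an ETS core just after the start, also read from the opposite strand.
ATP5MG: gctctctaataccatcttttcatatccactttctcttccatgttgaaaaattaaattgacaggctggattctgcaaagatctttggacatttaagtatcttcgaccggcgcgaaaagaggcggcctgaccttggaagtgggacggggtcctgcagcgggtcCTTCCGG
NDUFA9 lies at chr12:4648954-4649131 and has an NRF1 core upstream and a YY1 core after the start.
NDUFA9: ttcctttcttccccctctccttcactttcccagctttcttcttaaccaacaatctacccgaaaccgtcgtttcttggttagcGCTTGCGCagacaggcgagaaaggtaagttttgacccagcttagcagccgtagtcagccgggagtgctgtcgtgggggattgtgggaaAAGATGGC
COX5B lies at chr2:97645902-97646063 and has an NRF1 core and a pair of ETS cores, the nearer of which spans the start.
COX5B: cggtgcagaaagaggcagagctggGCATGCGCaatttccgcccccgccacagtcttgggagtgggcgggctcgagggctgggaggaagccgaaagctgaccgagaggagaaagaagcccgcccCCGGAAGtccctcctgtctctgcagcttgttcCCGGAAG
Of the cores searched, ATP5PB and ATP5MG carried different ones at the start, and any part of these in their changes with dox was not tested.

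Signals of different probe sets are not comparable as amounts of mRNA, so the following values give only how bright each probe set was. The 28 accessory subunits of complex I had a median signal of 3100, from 853.2 for NDUFA7 to 8342.8 for NDUFAB1. Its 5 core subunits, members of its conserved catalytic core, ranged from 976.8 for NDUFS1 to 7323.9 for NDUFV2. The 8 NDUFAF assembly factors were dimmer, from 297.9 for NDUFAF7 to 2468.5 for NDUFAF8. Complex II ranged from 1320.2 for SDHC to 3305.0 for SDHD, both of which anchor it in the membrane. Complex III ranged from 2773.1 for UQCRC1, a core protein, to 5953.4 for UQCRB. In complex IV the brightest was COX5A, at 9952.9. The F1 subunits ranged from 2708.0 for ATP5F1D to 9761.2 for ATP5F1A, the alpha subunit, and the tested Fo and stalk subunits from 2562.9 for ATP5MC1, a c-ring gene, to 8417.2 for ATP5MG. ATP5IF1, the inhibitor of the ATP synthase, read 2248.8, and COX7A2L, a factor of supercomplex assembly, read 1408.2.

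The tissue isoforms stood apart from the rest. COX4I2 (the lung isoform) read 53.6, COX7B2 37.9, COX6A2 (heart and skeletal muscle) 32.7 and NDUFA4L2, a hypoxia-inducible paralogue of the complex IV subunit NDUFA4, 27.5. COX6B2 (testis) had a mean of 11.2, below the median of every array, and was the dimmest member tested. COX7A1 (muscle) and COX8C were not tested, as above.

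By mean signal, 77 of the 88 genes were in the top decile of all probe sets. The spread between replicates was narrower for these genes than for most. The median SD within a group was 0.0959 on the log2 scale for the 85 members, against 0.1778 for all 14705 genes. All log2 values here are of the signal plus 5.4. A log2 difference of 1 is a doubling of that sum. The mean log2 level of the 85 members was 11.13 on the array where it was lowest, BMI1-shRNA with dox at 24 h, replicate 3, and 11.44 where it was highest, control-shRNA with dox at 32 h, replicate 1. The first array was lower than both its replicates, at 11.25 and 11.26. The other was higher than both of its own, at 11.33 and 11.20. The Fo and stalk subunits averaged 12.20 on the first of these arrays, against 12.41 and 12.40 on its replicates. In bulk RNA, fewer cells of a kind and less RNA per cell cannot be told apart.

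**Figure D1:**
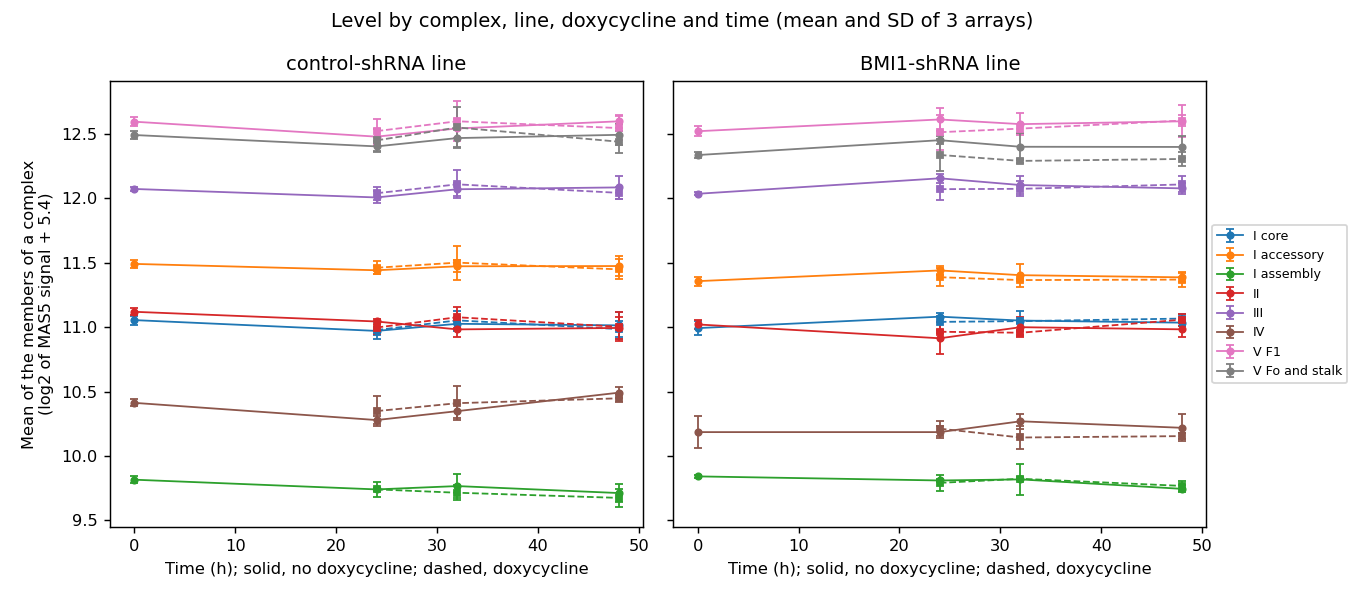
Mean log2(signal + 5.4) of the members of each complex (vertical axis) against time in hours, for the control-shRNA line (left) and the BMI1-shRNA line (right). Points are means of 3 arrays and bars their SD, solid lines are without doxycycline and dashed lines with it. For all 85 members together the group means lay between 11.19 and 11.32. COX7B2, which passed the filter only through the control line, is part of these means and of those of complex IV. The levels of complex IV are therefore not compared between the lines here.

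The first question was what happened to these genes when the BMI1 hairpin was induced. Over the mean of 24, 32 and 48 h, 4 of the 85 members fell and 0 rose in the BMI1-shRNA line (limma, Benjamini-Hochberg adjusted p under 0.05 over 14705 genes). The 4 were ATP5PB, ATP5MG, NDUFB10 and NDUFB6. This is 4.71% of the members, against 8.30% of all genes tested, of which 578 rose and 642 fell. At single times 1 member fell at 24 h (ATP5PB, against 1.61% of all genes called), 1 at 32 h (ATP5MG, 2.20%) and 3 at 48 h (ATP5PB, ATP5MG and NDUFB6, 5.35%), and 0 rose. These shares depended on the scaling. After quantile normalization, 2 members rose and 3 fell over the mean of the times (5.88%, against 8.82% of all genes under that scaling): ATP5MC2 (0.09) and NDUFB5 (0.07) were called higher, while ATP5PB (-0.40), ATP5MG (-0.36) and NDUFB10 (-0.10) were called lower. At 48 h the split was then 1 higher, NDUFA6 (0.22), and 4 lower (5.88%, against 6.28%). At 24 h and at 32 h 2 members each were then called lower (2.35%), against 1.73% and 2.37% of all genes.

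ATP5PB encodes subunit b, the long helix of the peripheral stalk that ties the catalytic head of the ATP synthase to the membrane. At 24 h its signals were 5117.3, 5212.4 and 4532.7 with dox and 6842.2, 6601.2 and 6604.7 without. At 32 h they were 4634.4, 4700.9 and 4810.1 with dox and 5638.7, 5526.1 and 6238.7 without. At 48 h they were 3723.1, 3837.4 and 4291.0 with dox and 6701.7, 5739.7 and 5328.6 without. The highest of the 9 dosed arrays, at 5212.4, lay below the lowest of the 9 undosed ones, at 5328.6. The change was -0.43 ± 0.09 (SE) on the log2 scale at 24 h (limma adjusted p = 0.00442) and -0.58 ± 0.09 at 48 h (1.71e-05). At 32 h it was -0.30 ± 0.09 and was not called (adjusted p = 0.0816), although the arrays of that time did not overlap either. Over the 3 times ATP5PB fell by 0.44 ± 0.05 on the log2 scale, or 1.354-fold (limma adjusted p = 4.88e-08). The call at 24 h was lost without the BMI1-shRNA dosed array 24 h replicate 3. Control-shRNA arrays ranged, in the 9 dosed ones, from 5760.2 to 7468.0 and in the 9 undosed ones from 5673.0 to 6954.0, with a change of 0.09 ± 0.05 over the 3 times (adjusted p = 0.866). A second retained ATP5PB probe set, near background at a mean of 25.9, gave -0.15 ± 0.15.

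ATP5MG encodes subunit g, a small membrane protein of the Fo part that lies where ATP synthase dimers meet. At 24 h its signals were 7575.7, 7755.1 and 6459.7 with dox and 9023.5, 9321.3 and 8996.1 without. At 32 h they were 6930.1, 6447.7 and 6529.6 with dox and 9104.8, 7530.7 and 8730.9 without. At 48 h they were 5863.3, 6030.2 and 5342.1 with dox and 9851.2, 8621.1 and 8110.0 without. The dosed and undosed arrays did not overlap within any of the 3 times. The log2 change was -0.33 ± 0.10 at 24 h (limma adjusted p = 0.0794, not called), -0.35 ± 0.10 at 32 h (0.0496) and -0.62 ± 0.10 at 48 h (1.83e-05). The call at 32 h stood just inside the threshold and was kept when only 1 of the 6 arrays, undosed replicate 2, was left out. Over the 3 times ATP5MG fell by 0.43 ± 0.06, or 1.350-fold (limma adjusted p = 3.06e-07). The change in the control-shRNA line was -0.01 ± 0.06, with dosed signals from 7723.9 to 11482.9. The highest of them belonged to the dosed array at 32 h, replicate 1, on which all members together were high.

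Further probe sets of ATP5MG moved alike. When all 35235 retained probe sets were tested as separate features, a choice made after the data were seen, the other 3 ATP5MG probe sets changed by -0.48 ± 0.05, -0.46 ± 0.06 and -0.44 ± 0.06 over the 3 times. Their mean signals were 6993.8, 717.3 and 8285.8, and their limma adjusted p-values 2.2e-09, 1.4e-07 and 4.78e-07. All 4 ATP5MG probe sets were thus called lower. Probe sets of 1 gene share the RNA of each array, so they are not separate replicates.

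NDUFB10 and NDUFB6, accessory subunits of the membrane arm of complex I, changed less. NDUFB10 averaged 3957.3 ± 198 (SD, n = 9) with dox and 4346.0 ± 215 without. It fell by 0.14 ± 0.04 over the 3 times (limma adjusted p = 0.0364), from values of -0.11 at 24 h, -0.10 at 32 h and -0.19 at 48 h that were not called. Its second probe set gave -0.14 ± 0.05 (adjusted p = 0.0797 over all probe sets). NDUFB6 averaged 1896.8 ± 145 with dox and 2030.1 ± 70.3 without, and fell by 0.10 ± 0.03 (0.0486). Its change was 0.02 ± 0.06 at 24 h, -0.13 at 32 h and -0.19 at 48 h, the last of which was called (0.0351). Both calls over the mean were close to the threshold: of the 18 fits that each left out 1 array, NDUFB10 was called in 6 and NDUFB6 in 5. NDUFB6 at 48 h was called in 1 of 6, the one without the dosed replicate 3.

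**Figure D2:**
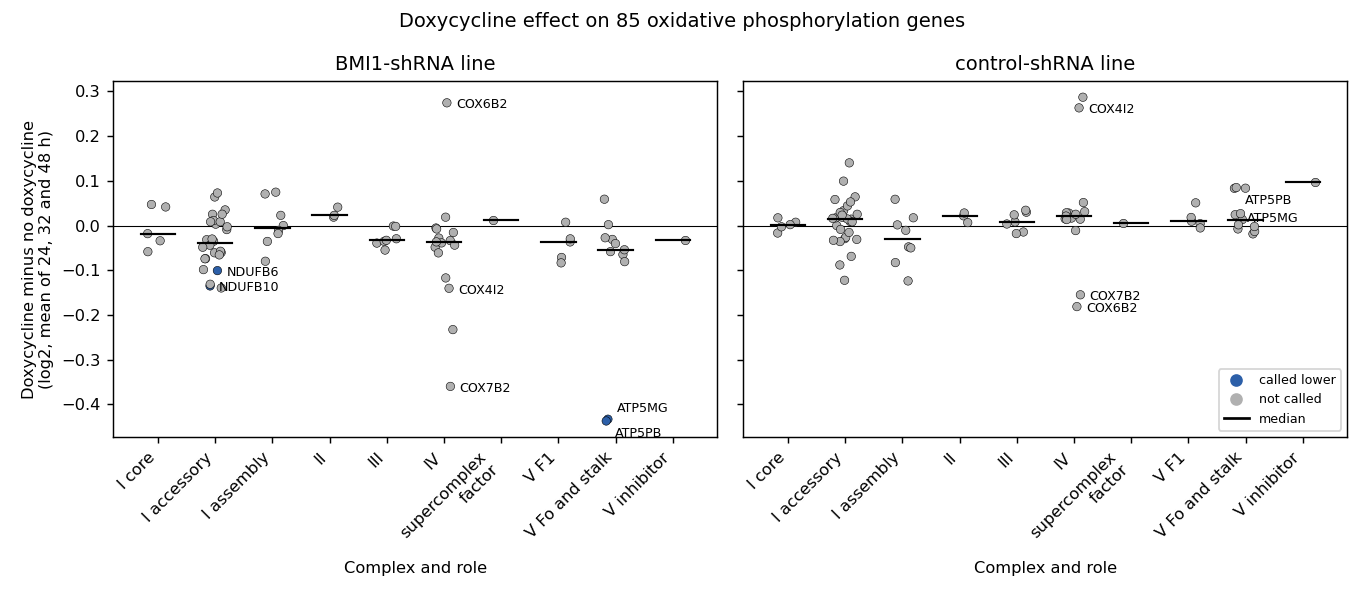
Log2 difference between arrays with and without doxycycline, averaged over 24, 32 and 48 h (vertical axis), for the 85 tested members by complex and role, in the BMI1-shRNA line (left) and the control-shRNA line (right). Each point is a gene, blue where called lower, and black bars are medians; ATP5PB and ATP5MG lie apart at -0.44 and -0.43 on the left, and 0 genes are called on the right.

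The rest of the machinery stayed within a narrow band. For 78 of the 85 members (91.8%) the 95% interval of the dox effect in the BMI1-shRNA line, over the 3 times, lay within a 1.25-fold change in either direction. The same held for 54.3% of all genes tested, whose spread was larger. By complex the median log2 change was -0.04 for the accessory subunits of complex I, -0.02 for its core subunits, 0.02 for complex II, -0.03 for complex III, -0.04 for complex IV, -0.04 for F1, and -0.05 for Fo and the stalk. Below 0 were 19 of 28 accessory subunits, 7 of 7 complex III subunits, 14 of 16 complex IV subunits and 9 of 11 Fo and stalk subunits. The counts of the other roles are not given here. Genes counted in this way share the scaling of each array, on which the small shift of the members as a whole depended, as described below. The dim isoforms scattered more widely, with COX7B2 at -0.36 and COX6B2 at 0.27, neither of them called. None of the members of complexes II, III or IV, of F1 or of the NDUFAF factors was called over the mean of the 3 times by limma.

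The members as a whole sat slightly below all genes, and this depended on the scaling of the arrays. Their median change was -0.03 over the 3 times, against 0.02 for all genes, and 62 of 85 were below 0. The median was -0.06 at 24 h, -0.04 at 32 h and 0.01 at 48 h. After quantile normalization the median was -0.002 over the mean, 0.008 at 24 h and 0.004 at 32 h, so the small shift below 0 did not remain at 24 h and 32 h. Below 0 at all 3 times were 22 members (25.9%), against 15% of all genes. These shares were, in the control-shRNA line, 11.8% and 12.8%.

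Dox in the control-shRNA line changed no member past the threshold. With limma 0 of 85 were called at 24 h (against 0.0408% of all genes), 32 h (0.0340%), 48 h (0.0476%) and over the mean (0.129%). At an unadjusted p under 0.05 there were 2, 2, 4 and 5 members. The 5 over the mean were NDUFV3 (0.14), NDUFA5 (0.10), ATP5IF1 (0.10), NDUFB7 (-0.12) and NDUFAF6 (-0.12). The intervals of 80 members (94.1%) lay within 1.25-fold, against 60.5% of all genes, whose spread was larger. For NDUFB10 the change was 0.04 at 24 h, 0.02 at 32 h, -0.16 at 48 h and -0.04 ± 0.04 over the mean (limma adjusted p = 0.974). The median of the members was 0.03 at 24 h, 0.05 at 32 h and -0.05 at 48 h, so it was not of one sign over the times.

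The difference between the dox effects tests whether the response to dox differed between the lines. Each hairpin was in 1 line, so hairpin and line cannot be told apart. Over the 3 times the difference was called and negative for 2 of 85 members by limma (2.35%, against 3.77% of all genes). It was -0.52 ± 0.07 for ATP5PB (adjusted p = 3.65e-06) and -0.43 ± 0.08 for ATP5MG (0.000413). At 48 h it was called for ATP5PB (-0.66 ± 0.13, 0.00116), ATP5MG (-0.48 ± 0.14, 0.048) and NDUFAF6 (0.35 ± 0.10, 0.0388), against 2.54% of all genes. That of ATP5MG was lost in 4 of 10 alternative settings and 9 of 12 fits that left out 1 array. At 24 h 0 members were called, against 0.354%, and at 32 h 0 against 0.938%, with 5 members at an unadjusted p under 0.05 at each of these times. For ATP5PB the differences then were -0.50 (adjusted p = 0.0806) and -0.40 (0.161). For NDUFB10 the difference over the mean was -0.10 ± 0.06 (0.504), and for NDUFB6 -0.12 ± 0.05 (0.208), so neither was shown to differ between the lines. For 75 members (88.2%) the interval of the difference lay within 1.25-fold, against 42.5% of all genes.

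NDUFAF6 is an assembly factor of complex I. At 48 h in the BMI1-shRNA line its signals were 1344.4, 1309.1 and 1307.5 with dox and 1230.7, 1214.5 and 1224.2 without. Its control-shRNA signals were 887.2, 793.8 and 810.9 with dox and 1016.3, 912.5 and 1014.6 without. Dosed arrays lay above the undosed ones in the first line and below them in the other, without overlap in either, but neither change was called alone. The difference was no longer called in 10 of the 12 fits that left out 1 array, and it was not called at 24 h or 32 h.

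UQCRB was read by 4 probe sets that differed among themselves. It encodes a small subunit of complex III that faces the matrix and helps bind ubiquinone. Its brightest probe set, with a mean of 5953.4, changed by -0.04 ± 0.04 with dox in the BMI1-shRNA line over the 3 times, and the next brightest (209066_x_at, mean 5332.9) by -0.00 ± 0.05. A dimmer probe set annotated to UQCRB alone (209065_at, mean 231.6) behaved otherwise, and it was picked out after its values were seen.

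At 24 h the signals of 209065_at in the BMI1-shRNA line were 83.5, 95.0 and 110.3 with dox and 289.5, 303.2 and 260.6 without. At 32 h they were 71.5, 76.4 and 85.4 with dox and 302.4, 307.8 and 285.9 without. At 48 h they were 45.4, 69.1 and 58.5 with dox and 243.0, 306.3 and 311.3 without. All 9 dosed arrays lay far below all 9 undosed ones. The log2 change was -1.52 ± 0.12 at 24 h, -1.87 ± 0.12 at 32 h and -2.22 ± 0.12 at 48 h, or 2.86-fold, 3.66-fold and 4.66-fold lower (limma adjusted p over 35235 probe sets 1.87e-11, 3.06e-14 and 8e-17). Over the mean it was -1.87 ± 0.07 (2.83e-22), the 6th lowest change of the 35235 probe sets. Dosed control-shRNA arrays of this UQCRB probe set ranged from 233.3 to 307.7 and undosed ones from 211.3 to 286.3 at the same times, with a change of 0.03 ± 0.07. The difference between the lines was -1.90 ± 0.10 (limma adjusted p = 2.15e-17). Without dox the lines differed by 0.16 (adjusted p = 0.0666).

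The dimmest UQCRB probe set (244293_at), near background at a mean of 25.2, changed by -0.80 ± 0.16 (limma adjusted p = 0.000508). Its change in the control-shRNA line was -0.15 ± 0.16, and the difference between the lines was not called (-0.65 ± 0.22, adjusted p = 0.127). The pair of bright UQCRB probe sets and the pair of dim ones thus gave different readings of dox. Which transcripts each of them reads was not tested. The neighbouring genes in RefSeq order (GRCh38.p14) changed by 0.09 (PLEKHF2), 0.22 (CFAP418), -0.05 (MTERF3) and -0.05 (PTDSS1) under dox in the BMI1-shRNA line, and none was called by limma. By the same reading, the neighbours of ATP5PB (WDR77 at -0.06 and RAP1A at 0.15) and of ATP5MG (UBE4A at -0.09 and KMT2A at -0.19) were not called either.

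Taken probe set by probe set, the 85 tested members had 157 retained probe sets. In the BMI1-shRNA line 1 of the 157 was called higher and 9 lower over the 3 times, against 5.83% of all probe sets. Among the 157, 0 were called in the control-shRNA line, against 0.0710% of all probe sets, with 6 of the 157 at an unadjusted p under 0.05. The difference between the lines was called for 6 of the 157, all negative, against 2.53% of all probe sets. The remaining calls that were not of the brightest probe set were a dim probe set of ATP5MC3, a c-ring gene (mean signal 102.7, -0.51 ± 0.09, adjusted p = 8.98e-05), and 1 of UQCRC2, a core protein of complex III (57.0, 0.40 ± 0.12, 0.0303).

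**Figure D3:**
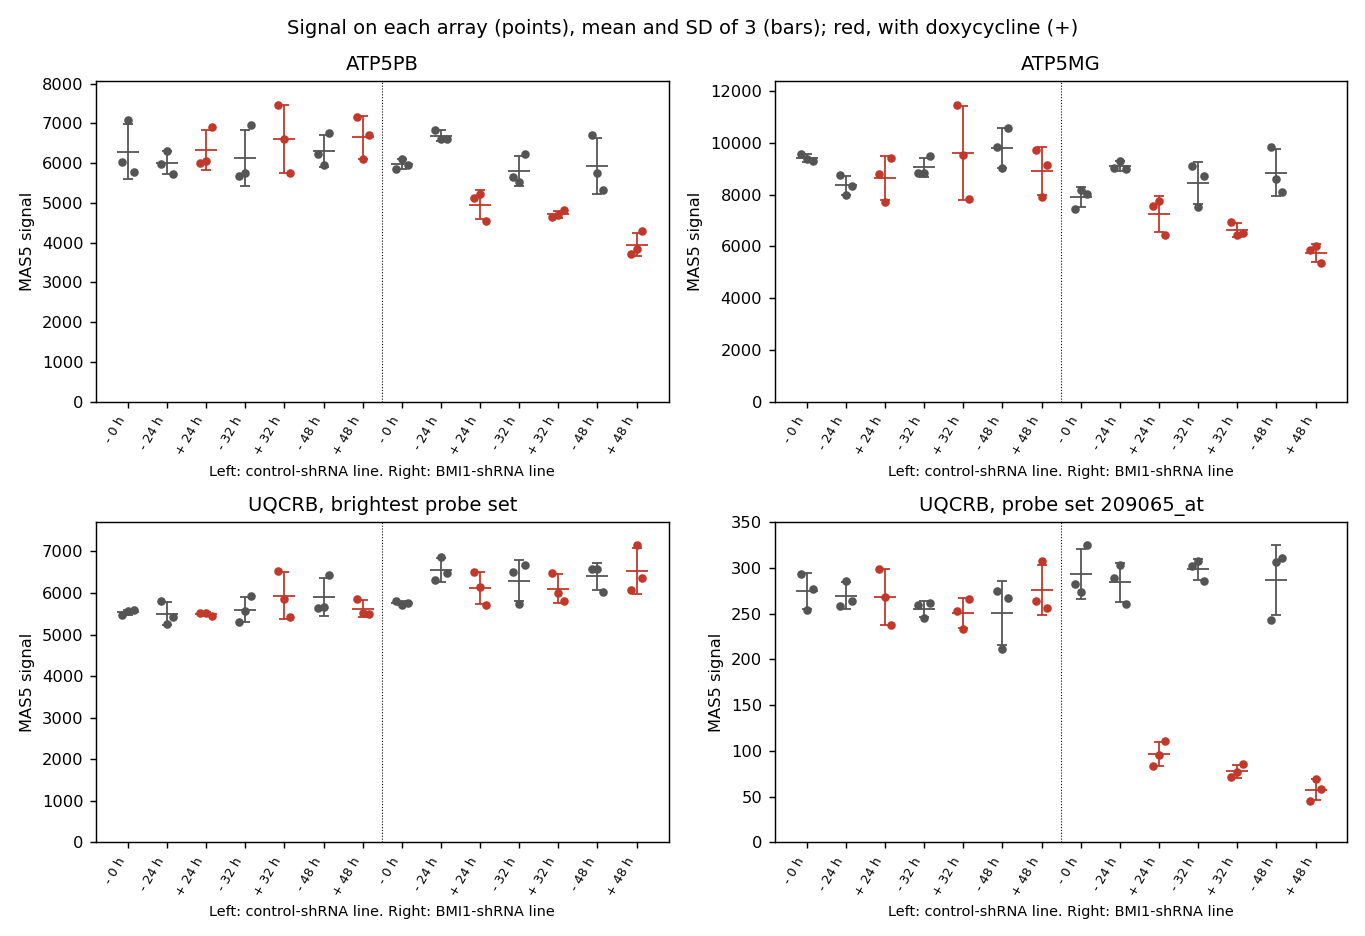
MAS5 signal (vertical axes, starting at 0) on each of the 42 arrays for ATP5PB, ATP5MG, the brightest UQCRB probe set and UQCRB probe set 209065_at, by line, time and doxycycline (+ and red, with; - and grey, without). Points are arrays and bars the mean and SD of 3; the red points of the BMI1-shRNA line lie below the grey ones for ATP5PB and, more clearly, for 209065_at (45.4 to 110.3 against 243.0 to 311.3), but not for the brightest UQCRB probe set.

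The genes whose arrays most resembled ATP5PB were found by correlation over the 42 arrays, after the mean of the undosed arrays of the same line, those at 0 h included, was taken away. They were DEGS1 (r = 0.889), EIF4G2 (0.887), IMMT (0.884), FDX1 (0.882) and ATP5MG (0.878). DEGS1 is a ceramide desaturase, EIF4G2 a translation factor, IMMT the organizer of the cristae and FDX1 the mitochondrial ferredoxin. The 42 arrays share lines, times and treatment, so these values are a description. Dox in the BMI1-shRNA line changed DEGS1 by -0.87 ± 0.04, EIF4G2 by -0.81 ± 0.04, IMMT by -0.31 ± 0.04 and FDX1 by -0.85 ± 0.04. As these genes were picked on the same dosed arrays, a fall beside that of ATP5PB was largely built into the choice. The other 84 members had a median r of 0.222 with ATP5PB, down to -0.264 for NDUFAF3.

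Other mitochondrial genes, from lists drawn up by function, moved by small amounts and in both directions with dox in the BMI1-shRNA line (limma, adjusted p under 0.05, mean of the 3 times, against 8.30% of all genes). Of 33 assembly factors of complexes II to V, 3 fell: ATPAF2, which helps assemble F1 (-0.22 ± 0.07), and the complex III factors TTC19 (-0.13 ± 0.04) and LYRM7 (-0.13 ± 0.04). None of 11 further complex I assembly factors was called, with 4 at an unadjusted p under 0.05. Of 15 genes of coenzyme Q synthesis and cytochrome c, COQ2 (0.16) and COQ10B (0.14) rose. Of 12 genes of the tricarboxylic acid cycle, IDH3A fell (-0.12). Of 13 genes of mitochondrial DNA transcription and replication none was called, with 1 at an unadjusted p under 0.05. Of 9 regulators, GABPA fell (-0.27 ± 0.08, adjusted p = 0.0175) and YY1 rose (0.13 ± 0.04, 0.0119). Of 12 carriers and porins the citrate carrier SLC25A1 rose (0.21), and of 17 import genes the receptor TOMM20 fell (-0.19).

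Among the mitochondrial lists the difference between the lines was called for DLD, a subunit shared by several dehydrogenases (-0.15, adjusted p = 0.0441), over the mean, and for LYRM7 (-0.33, 0.0437) at 48 h by limma. Of 9 tested plasma cell markers 5 rose with dox in the BMI1-shRNA line: POU2AF1 (0.12), TNFRSF17 (0.13), PRDM1 (0.14), IRF4 (0.15) and CD38 (0.24). Over the mean of the times 8.30% of all genes were called, 578 of 14705 of them higher. Only called markers are named, so the remaining tested ones have no value here, and a rise of the list as a whole is not shown. With dox in the control-shRNA line PRDM1 rose (0.15), and of the differences between lines that of CD38 was called by limma (0.26, adjusted p = 0.0293). Over the mean of the times 0.129% of all genes were called with dox in the control-shRNA line, and 3.77% for the difference. The marker changes stood beside the falls of ATP5PB and ATP5MG, and their part in these was not tested.

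Without dox the lines themselves differed. Over the mean of 24, 32 and 48 h, 13 members were higher and 18 lower in the BMI1-shRNA line than in the control line by limma, or 36.5% of the 85, against 43.9% of all genes. After quantile normalization it was 41 members (48.2%), against 44.9% of all genes, so the order of the shares turned with the scaling. In 10 members (11.8%) the 9 arrays of the lines did not overlap, 4 of them higher and 6 lower in the BMI1-shRNA line, against 16.1% of all genes tested. COX7B2, which passed the filter only through the control line, is among the lower members in these counts. In complex I 4 of 28 accessory subunits were higher and 9 lower, and 2 of 5 core subunits higher and 1 lower. Of 8 NDUFAF factors 2 were higher and 2 lower. In complex III 2 of 7 were higher and 1 lower, in complex IV 0 of 16 higher and 2 lower, in F1 2 of 5 higher, and in Fo and the stalk 1 of 11 higher and 2 lower. Complex II had no call among 3 genes, with 0 at an unadjusted p under 0.05. ATP5PB and NDUFB10, by contrast, differed by -0.01 ± 0.05 (adjusted p = 0.95) and -0.07 ± 0.04 (0.159).

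NDUFA9, an accessory subunit at the joint between the arms of complex I, was the highest. Its signals had a minimum, median and maximum of 1593.0, 1868.4 and 1971.7 in the BMI1-shRNA line and of 846.9, 1064.0 and 1206.5 in the control line. The difference was 0.77 ± 0.06, or 1.706-fold (limma adjusted p = 9.8e-14). CYC1, the cytochrome c1 of complex III, followed with 5047.6, 5920.3 and 6335.3 against 3721.0, 4387.6 and 4650.7, a difference of 0.43 ± 0.05 (1.71e-09). The next were NDUFAF5 (0.38 ± 0.04) and NDUFAF6 (0.35 ± 0.04), assembly factors of complex I whose arrays did not overlap between the lines, and NDUFV2 (0.29 ± 0.05) and NDUFV1 (0.25 ± 0.04), the core subunits where NADH is oxidised, whose arrays did.

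COX7B2, the testis counterpart of a complex IV subunit, is counted among the lower members. It read 6.6, 12.7 and 15.8 (minimum, median and maximum) in the BMI1-shRNA line, below every array median, and 45.1, 73.1 and 81.4 in the control line. It passed the filter on dim probe sets only through the control line, so no size or test of its difference is given. NDUFS4, an accessory subunit of the NADH-oxidising arm, read 780.4, 827.0 and 927.6 against 995.8, 1229.2 and 1287.2, a difference of -0.47 ± 0.04 (5.9e-13). The next lowest were NDUFA3 (-0.39 ± 0.04), NDUFA8 (-0.34 ± 0.04) and NDUFS6 (-0.31 ± 0.04) of complex I and ATP5MJ (-0.30 ± 0.03) of complex V, all without overlap. The second ATP5MJ probe set gave -0.03 ± 0.04, so its difference was seen by 1 of 2 probe sets. The called differences of NDUFB7 (0.22 ± 0.06) and NDUFAF8 (-0.19 ± 0.06) had the opposite sign in dim probe sets, at -0.24 ± 0.18 for NDUFB7 and 0.30 and 0.40 for NDUFAF8, none of them called.

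The differences between the lines were set beside those of the genes nearby. For each of the 85 members the 10 nearest tested genes in RefSeq order (5 on each side) were taken, except for SDHA, which had 7. Across the members the difference of the gene itself and the median of its neighbours had a Spearman rho of 0.548, and a Pearson r of 0.578 without COX7B2. This is across genes, which are not independent replicates and were read on the same arrays. Of all genes tested 21.8% were called higher and 22.1% lower. Around CYC1, 9 of 10 neighbours were called higher, with a median of 0.62. Around NDUFAF5 it was 7 of 10 (median 0.47), around NDUFAF6 8 of 10 (0.25), around ATP5F1E 8 of 10 (0.48) and around UQCRB 7 of 10 (0.39). The sets around NDUFAF6 and UQCRB overlap, with CFAP418 (-0.05) in both. Around NDUFS4 7 of 10 were called lower (-0.32), and around ATP5MJ 5 of 10 (-0.27). Of the neighbours of NDUFA9, 4 were called higher (0.20), and those of NDUFA8 had a median of -0.0004. Other members stood apart from their surroundings: COX6C at 0.03 with 6 of 10 neighbours higher (0.33), NDUFC1 at 0.03 with 6 of 10 lower (-0.38), and ATP5PB at -0.01 with 4 of 10 higher (0.39).

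**Figure D4:**
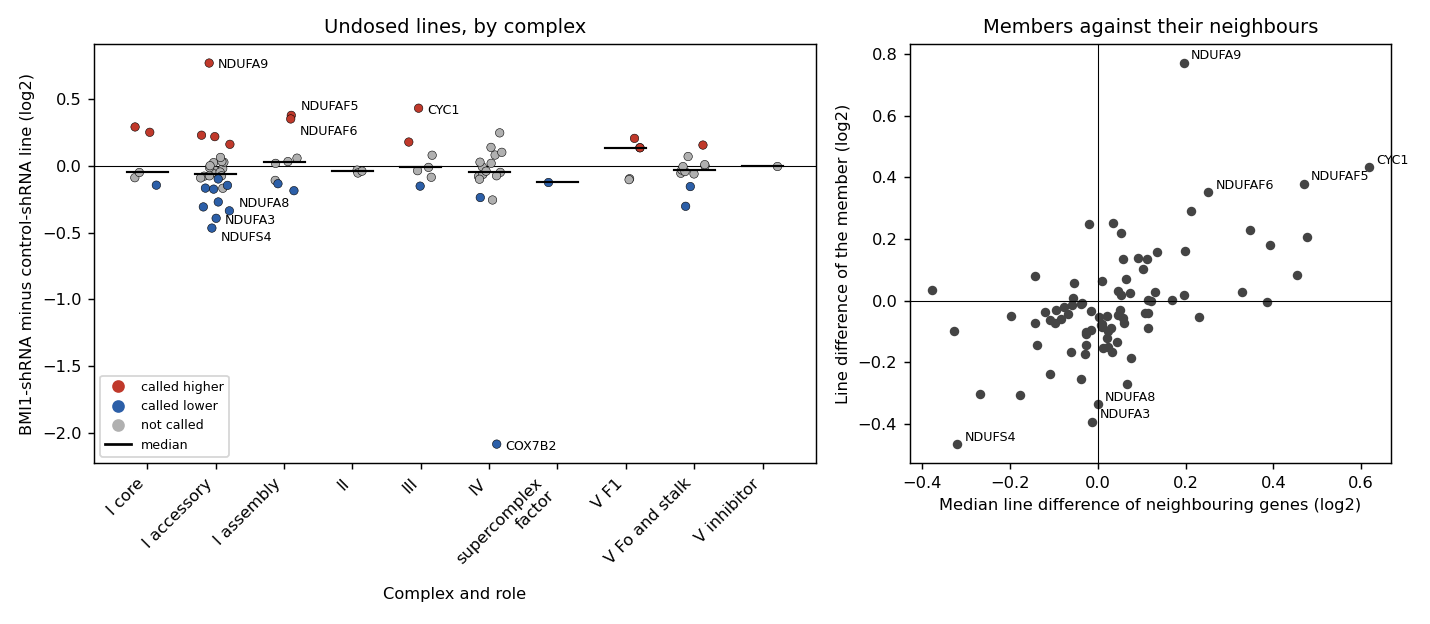
Left, log2 difference between the undosed BMI1-shRNA and control-shRNA lines (vertical axis) for the 85 tested members by complex and role, red where called higher, blue where called lower, with black bars for medians. COX7B2, which passed the filter only through the control line, is among them. Right, the same difference for each member except COX7B2 (vertical axis) against the median difference of its 10 neighbouring genes (7 for SDHA, horizontal axis). CYC1 and NDUFAF5 lie at the upper right, NDUFS4 at the lower left, and NDUFA9 well above its neighbours.

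The other mitochondrial lists also differed between the undosed lines by limma, against 43.9% of all genes. Of 33 assembly factors of complexes II to V, 11 were higher and 8 lower, from SDHAF4 (-1.22), COX19 (-0.53) and COA5 (-0.39) to SDHAF3 (0.65), PET117 (0.55) and ATPAF2 (0.53). Of 11 complex I assembly factors outside the NDUFAF genes, 5 were higher and 3 lower, from TMEM126B (-0.34), COA1 (-0.17) and TMEM126A (-0.08) to ACAD9 (0.30), TIMMDC1 (0.40) and NUBPL (0.42). Of 15 coenzyme Q and cytochrome c genes, 2 were higher and 9 lower, with COQ4 and COQ2 at -0.41, HCCS at -0.39, PDSS2 at 0.15 and COQ3 at 0.31. Of 13 genes of mitochondrial DNA maintenance and expression, 6 were higher and 1 lower, with MGME1 at 0.73, TFB2M at 0.37, POLRMT at 0.26 and SLIRP at -0.20. Of 12 tricarboxylic acid cycle genes 4 were higher and 4 lower, with IDH3B at 0.47, OGDH at 0.30, IDH3A at -0.24 and IDH2 at -0.35. Of 12 carriers and porins 2 were higher, SLC25A13 (0.37) and VDAC3 (0.33), and 5 lower, among them SLC25A4, an adenine nucleotide carrier (-0.61), and the pyruvate carrier subunits MPC2 (-0.54) and MPC1 (-0.36). Of 17 import genes TOMM34 (0.40), TOMM70 (0.18) and TIMM44 (0.13) were higher, and TIMM17A (-0.37), TOMM20 (-0.18) and TOMM40 (-0.12) lower. Of 9 regulators ESRRA (0.17) and NFE2L2 (0.10) were higher and YY1 (-0.21) lower.

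Time without dox was compared within each line. Between 0 and 48 h, 3 members fell in the control-shRNA line by limma (3.53%, against 5.05% of all genes): NDUFAF6 by 0.30 ± 0.07 (adjusted p = 0.00483), NDUFAF4 by 0.24 ± 0.06 (0.014) and NDUFS3, a core subunit, by 0.23 ± 0.06 (0.0272). With the 0 h arrays taken by title, 3 fell in the BMI1-shRNA line as well (against 4.47%): NDUFAF4 by 0.30 ± 0.06 (0.00243), NDUFA5, an accessory subunit, by 0.26 ± 0.08 (0.0438) and NDUFAF6 by 0.24 ± 0.07 (0.0316). NDUFAF4 read 1556.0, 1603.5 and 1555.0 at 0 h and 1361.6, 1296.8 and 1337.7 at 48 h in the control-shRNA line. The BMI1-shRNA arrays read 1522.6, 1539.1 and 1410.5 and then 1219.1, 1310.3 and 1108.1. The arrays of the times did not overlap in either line. Every call in the control-shRNA line was lost without the undosed 48 h replicate 2. That of NDUFAF4 was also lost without 0 h replicate 2, that of NDUFAF6 without 0 h replicate 1, and that of NDUFS3 without either. NDUFA5 and NDUFAF6 in the BMI1-shRNA line lost the call whichever of the 6 arrays was left out. With the mean of probe sets in place of the brightest, all 3 calls of the BMI1-shRNA line were lost. NDUFAF4 lost its call in the control-shRNA line in that setting as well.

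After quantile normalization the control-shRNA line had 1 member higher at 48 h than at 0 h, NDUFB10 (0.18), and 4 lower, or 5.88% against 5.56% of all genes. Between 24 and 48 h limma called 0 members in the control-shRNA line (against 0.843% of all genes, with 19 members at an unadjusted p under 0.05) and 0 in the BMI1-shRNA line (0.952%, with 4). The change of ATP5PB without dox between 24 and 48 h was 0.07 ± 0.09 in the control line and -0.18 ± 0.09 in the BMI1-shRNA line (limma adjusted p = 0.383). Between 0 and 48 h it was 0.01 ± 0.09 and -0.02 ± 0.09. For NDUFB10 the changes between 24 and 48 h were 0.14 ± 0.07 and 0.00 ± 0.07, and between 0 and 48 h 0.15 ± 0.07 and 0.13 ± 0.07, none called by limma.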

How the data were processed

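Total RNA of 42 samples was hybridised as biotin-labelled cRNA to Affymetrix U133 Plus 2 arrays. The deposited values are linear MAS5 signal intensity per probe set, by the submitters' processing notes, which give no MAS5 version. With the outer 2% of values removed at both ends, array means were 149.97 to 149.98, so the authors scaled all arrays alike, which can shift many bright genes together. Arrays have no read depth, and 3 per group limit the precision.

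A probe set was retained when its signal reached the median of the array on 3 or more of 42 arrays (35235 of 54675, with 62 controls left out). Symbols came from the platform annotation, updated through gene IDs with RefSeq names (GRCh38.p14, 41043 of 41097 single-symbol probe sets matched). A gene took its brightest retained probe set with 1 symbol, giving 14705 genes. Probe sets with several symbols (1801) or none (11721) stood for no gene. Values were log2(signal + 5.4), where 5.4 is the 25th percentile. limma 3.58.1 (R 4.3.3) fitted 14 group means with an intensity trend (28 residual and 8.62 prior degrees of freedom), two-sided, with Benjamini-Hochberg adjustment over all genes and 0.05 as threshold. The procedure was tested on simulated data. The difference between lines was tested as an interaction.

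Named genes were BMI1, all called members up to 12 per comparison or else the 6 highest and 6 lowest, ATP5PB and NDUFB10, the brightest and dimmest member of each complex, members whose probe sets disagree, tissue isoforms, and the 5 genes most like ATP5PB. From other lists all called genes were named up to 6, or else some of the highest and lowest. The members, lists and rules were chosen with earlier results of these data known. Same-numbered arrays did not deviate together (mean correlation 0.002, against -0.001 for different numbers), so numbers were not used as a block. Alternatives were other pseudocounts, quantile normalization, filters, the mean of probe sets, no trend, the groups of the comparison alone, the replicate block and leaving out each array. Testing all probe sets, leaving out the 0 h arrays and the alternatives for 1 UQCRB probe set were added after the data were seen.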

Additional observations from a re-analysis of the deposited data

Results flagged for a closer look

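The dox effect differed between the lines, by limma's test of that difference, for 3 members' brightest probe sets and for 1 further probe set of UQCRB. For ATP5PB the difference was -0.52 over the mean of 24, 32 and 48 h and -0.66 at 48 h on the log2 scale. For ATP5MG it was -0.43 over the mean and -0.48 at 48 h, the latter lost in 9 of 12 fits that left out 1 array. For NDUFAF6 it was 0.35 at 48 h, where the effects of the lines had opposite signs, and was lost in 10 of 12 such fits. For UQCRB probe set 209065_at it was -1.51 at 24 h, -1.85 at 32 h, -2.36 at 48 h and -1.90 over the mean. In each of the 25 alternatives run for the dox effect of 209065_at in the BMI1-shRNA line, over the mean, the change lay between -1.93 and -1.71, with 1.89e-18 as the highest adjusted p.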

How the results depend on the processing

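Of the results for single named genes under the alternatives, 1210 kept their direction and side of the threshold, 120 lost the call and 2 reversed. The 2 were NDUFB7 (-0.0124) and NDUFAF8 (0.17) between the undosed lines with the mean of probe sets. The cause was not tested. ATP5PB and ATP5MG kept their calls over the mean of the times, for dox and for the difference between lines, in all 10 alternatives and with each array left out; the highest adjusted p was 0.0326. With the mean of probe sets ATP5PB lost its call at 24 h and, for the difference, at 48 h. ATP5MG lost the call of the difference at 48 h in 4 of 10 alternatives and 9 of 12 fits without 1 array.

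Counts of called members for dox in the BMI1-shRNA line moved as follows. At 24 h it was 2 with quantile normalization and with the mean of probe sets, against 1. At 32 h it was 0 with a pseudocount of 1, without the filter, without the trend, with only the groups compared and without the 0 h arrays, and 2 with quantile normalization and the mean of probe sets, against 1. At 48 h it was 5 with quantile normalization and the mean of probe sets, against 3. Over the mean it was 2 without the filter and without the trend and 7 with the mean of probe sets, against 4. For the difference between lines it was 1 at 24 h with quantile normalization, the mean of probe sets and only the groups compared, against 0. At 32 h it was 1 with quantile normalization and 2 with the mean of probe sets, against 0. At 48 h it was 1 without the trend, with only the groups compared and without the 0 h arrays, against 3. Between 0 and 48 h the control-shRNA line had 5 with quantile normalization and 0 with only its groups, against 3. The BMI1-shRNA line had 1 with the mean of probe sets, against 3, and that 1 was not among the 3. Between 24 and 48 h the BMI1-shRNA line had 1 with quantile normalization, against 0.

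With each array left out in turn, the counts for dox in the BMI1-shRNA line ranged from 0 to 1 at 24 h, 0 to 1 at 32 h, 2 to 3 at 48 h and 2 to 4 over the mean. For the difference they ranged from 0 to 2 at 32 h, 1 to 2 at 48 h and 2 to 3 over the mean, and were 0 at 24 h. For the undosed lines they ranged from 30 to 37. Control-shRNA counts ranged from 0 to 1 between 24 and 48 h and 0 to 4 between 0 and 48 h, and were 0 for dox. BMI1-shRNA counts were 1 between 0 and 48 h and 0 between 24 and 48 h. With the replicate block, 3 members were called over the mean for dox in the BMI1-shRNA line, against 4, and the other counts were the same as without it. The replicates share only a number.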
